A study of Mus musculus with 2 samples.

Results

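The 8 genes described here encode secreted proteins of the extracellular matrix: the thrombospondins Thbs1, Thbs2 and Thbs4, tenascin C (Tnc), periostin (Postn), fibronectin (Fn1), and the related proteins Sparc and Sparcl1. They were chosen by name as matricellular proteins and fibronectin, with earlier results of these data known. They are 8 of the 32285 genes in the count tables. All 8 had UMIs (unique molecular identifiers, each standing for 1 captured transcript) in both libraries. The data are single-cell transcriptomes of subcutaneous tumors of Lewis lung carcinoma (LLC), a mouse lung cancer line, grown in mice with or without the β1 subunit of soluble guanylate cyclase (sGC, the nitric oxide receptor) in pericytes. The control library (sGC Ctr) came from Gucy1b1 flox/flox littermates without Cre, and the knockout library (sGC ∆PC) from Cspg4-CreERT2::Gucy1b1 flox/flox mice, both on C57BL/6. Mice of both groups received 5 doses of tamoxifen from 4 weeks of age and LLC cells at 8 weeks, and tumors were taken 2 weeks later. Each library pooled 3 tumors and there was 1 library per group, so that no difference between the libraries has a replicate check, and no test of genotype is given. Cre was driven by Cspg4, the gene for NG2, which is not restricted to pericytes, and the injected cancer cells came from the same line in both groups.

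Matricellular proteins sit in the matrix without being its main building blocks, and bind cells, growth factors and proteases there. Thrombospondin 1 inhibits blood vessel growth through its receptors CD36 and CD47 and can activate latent TGF-β, tenascin C and periostin are produced by activated fibroblasts, and fibronectin is a structural protein that cells grip through integrins. SPARC binds collagen, and SPARC-like 1 is known from vessel walls and brain. In tumors these proteins are made by fibroblasts, mural cells, endothelial cells (ECs) and myeloid cells, and some also by the cancer cells.

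After filtering, 12220 cells of the sGC Ctr library and 22498 of the sGC ∆PC library were kept, with a median of 35776.5 and 8685 UMIs per cell, out of 487859656 and 436352742 UMIs deposited in all. Cells were assigned to 10 classes by marker genes that include none of the 8 genes. The classes held 39 and 39 pericytes, 60 and 60 ECs, 115 and 211 fibroblasts, 2142 and 2818 macrophages, 382 and 327 monocytes, 216 and 267 granulocytes, 62 and 60 T cells, and 7417 and 11774 cancer cells (sGC Ctr first, here and in all pairs below). Natural killer and dendritic cells numbered 9 to 27 per library. Cells with cancer cell RNA above a limit were left out of the non-cancer classes, unequally in the 2 libraries. Without that limit, pericytes numbered 43 and 71, and fibroblasts 137 and 352. The genes that led the pericyte class over the other classes were Higd1b, Rgs5, Gucy1a1 and Rgs4, followed by Myl9 and the smooth muscle gene Myh11, so that the class holds mural cells with some smooth muscle RNA. The leading genes of the fibroblast class (Sfrp4, Cck, Igfbp5) included no marker used for the gate and none of another class, and those of the cancer cells included no gate marker either. As a check of the labels, Gucy1b1 had 119 counts per 1000000 UMIs (CPM; 59 UMIs) in the pericytes of the sGC Ctr library and 41.2 (12 UMIs) in those of the sGC ∆PC library. The depth differed most in fibroblasts, with medians of 21474 and 2967 UMIs per cell, and least in monocytes (6187 and 6769) and granulocytes (2115.5 and 2238). Free RNA of cancer cells can enter any droplet, and the share of RNA that the cancer cell markers put at this source was largest in granulocytes (10.7% and 13.1%). It was 5.21% and 10.0% in pericytes, 6.02% and 8.61% in fibroblasts, 5.58% and 5.03% in ECs, and 7.51% and 8.61% in macrophages.

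Levels are summed raw UMIs of a class, scaled to a total of 1000000 UMIs for that class (CPM), with exact Poisson 95% intervals, and ratios are log2(∆PC/Ctr) with exact intervals of the 2 counts. Both intervals cover counting error only, not the spread between tumors. Because the chemistry counts 3′ ends, levels of 1 gene are compared between classes, not between genes. A share of cells with a UMI depends on depth and on free RNA. Therefore shares were also computed after thinning each cell to 2000 UMIs, and the share in T cells, which are not a main source of these proteins, was taken as the background.

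Postn, Tnc and Thbs4 were the 3 members for which the gated fibroblasts held more UMIs than any other class, although that class was small. Fibroblasts made up 0.941% and 0.938% of the cells, but held 64.9% and 43.9% of the Postn UMIs, 64.7% and 50.3% of the Tnc UMIs and 79.7% and 62.4% of the Thbs4 UMIs. These shares are counted after the limit on cancer cell RNA, without which the fibroblasts numbered 137 and 352. They therefore do not compare how common fibroblasts were in the 2 libraries. For these 3 genes the 250 bases before a RefSeq transcript start (GRCm38.p6, 5′ to 3′ on the strand of the gene) are shown for 1 transcript start each, since their levels in fibroblasts are what the comparison of these genes rests on. Capitals mark matches on either strand to the TATA box (searched as TATAAA). They also mark matches to the GC box (searched as GGGCGG).
Postn, chr3:54360857-54361106, plus strand: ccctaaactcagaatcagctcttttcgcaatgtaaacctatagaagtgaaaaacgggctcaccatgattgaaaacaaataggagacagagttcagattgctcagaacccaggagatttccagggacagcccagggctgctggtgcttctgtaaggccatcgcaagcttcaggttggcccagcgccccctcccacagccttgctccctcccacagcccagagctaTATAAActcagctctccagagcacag
Tnc, chr4:64047016-64047265, minus strand: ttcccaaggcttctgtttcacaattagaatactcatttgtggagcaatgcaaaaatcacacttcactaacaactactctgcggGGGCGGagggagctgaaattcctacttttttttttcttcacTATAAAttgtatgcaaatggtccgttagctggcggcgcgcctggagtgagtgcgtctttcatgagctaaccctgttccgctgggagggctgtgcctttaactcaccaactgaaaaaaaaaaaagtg
Thbs4, chr13:92794819-92795068, minus strand: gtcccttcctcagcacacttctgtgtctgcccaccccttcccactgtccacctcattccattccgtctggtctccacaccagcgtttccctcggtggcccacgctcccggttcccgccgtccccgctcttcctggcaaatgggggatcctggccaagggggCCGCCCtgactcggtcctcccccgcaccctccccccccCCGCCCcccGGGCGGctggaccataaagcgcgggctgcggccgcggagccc
Postn and Tnc each have 2 windows, of which 1 is shown. The Postn window held a TATA box match 26 bases before the start, and the other window of the gene, at another start, held none. The Tnc window held a TATA box match 126 bases and a GC box match 167 bases before the start, which lie 205 and 246 bases before the start of its other window. The Thbs4 window, with a GC content of 70.8%, held no TATA box match but 3 to the GC box, at 89, 51 and 42 bases. Among 32817 mouse promoter windows of the same length, 12.4% held the TATA box and 32.7% the GC box. None of the matches overlapped another. Searches for the AP-1 site (TGANTCA, in 6.75% of all windows), the hypoxia response element (core ACGTG, in 16.6%) and the CArG box (in 1.47%) had no match in these 3 windows, which says only that those letters are not there. Windows were at hand for Thbs2 and Sparc too, 5 of the 8 members in all, and not for Thbs1, Fn1 and Sparcl1.

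**Figure D1:**
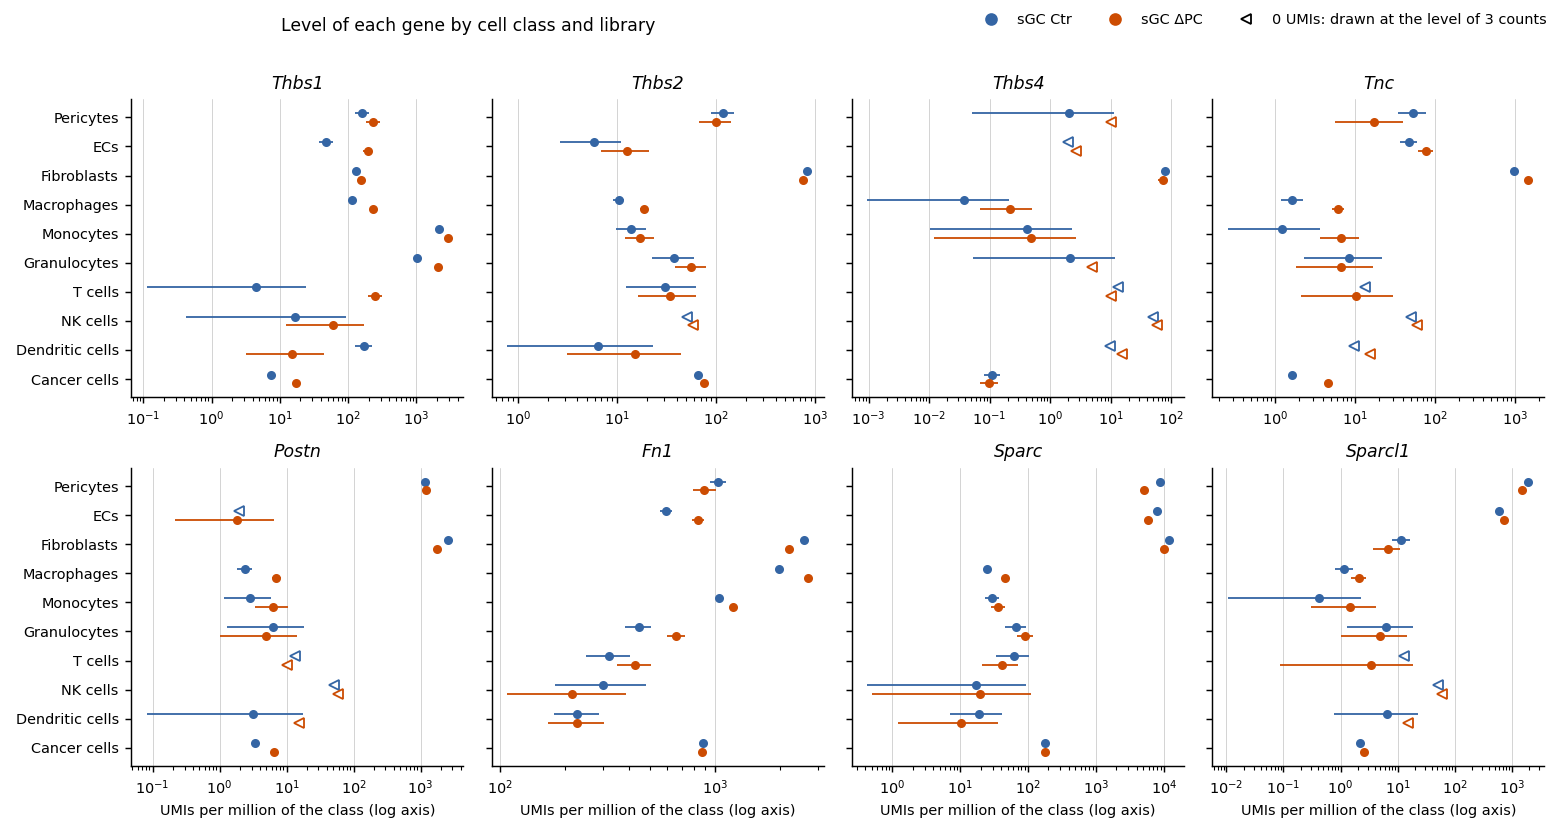
Levels of the 8 genes in the marker-gated cell classes, 1 panel per gene, as CPM on a log axis, with sGC Ctr and sGC ∆PC as separate points and exact Poisson 95% intervals as bars. An open triangle stands for 0 UMIs and is drawn at the level of 3 counts. Thbs1 was highest in monocytes (2115 and 2848), Postn and Tnc in fibroblasts, and Sparcl1 in pericytes (1910 and 1516).

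The thrombospondins were split between different cells. Thbs1 (chr2:118111876-118127133, plus strand, GRCm38) was highest in monocytes, with 2115 CPM [2057 to 2173] and 2848 CPM [2776 to 2922], followed by granulocytes with 1009 CPM [921 to 1104] and 2055 CPM [1942 to 2173]. Each of these classes stood apart from the next in both libraries. After thinning, 65.6% and 77.7% of monocytes and 43.0% and 65.6% of granulocytes had a Thbs1 UMI (73.6% and 81.0%, and 38.4% and 62.9%, without thinning). T cells had 1 of 62 and 6 of 60 cells with a Thbs1 UMI, or 0 of 53, which allows a share of up to 5.66%, and 5.45% after thinning. The level in sGC ∆PC T cells, 245 CPM, came from 72 UMIs of which 39 lay in a single cell, and the level in sGC Ctr dendritic cells, 170 CPM, from 53 UMIs of which 51 lay in 1 cell. Platelets store thrombospondin 1, and the summed level of 4 platelet markers (Ppbp, Gp9, Itga2b, Gp1bb) was 2.07 and 1.92 CPM in monocytes and 2.10 and 1.66 CPM in granulocytes. The highest level of any class was 24.4 CPM, in the macrophages of sGC ∆PC, against 14.3 CPM in those of sGC Ctr. The part of platelet RNA in the Thbs1 levels was not tested. Below monocytes and granulocytes, pericytes (160 and 234 CPM), fibroblasts (130 and 157 CPM) and macrophages (113 and 231 CPM) followed each other closely. In the sGC Ctr library the intervals of neighbors in this order overlapped. In sGC ∆PC, ECs (192 CPM) lay between macrophages and fibroblasts, with an interval apart from that of macrophages. A further 33.4% and 41.5% of all Thbs1 UMIs lay in kept cells outside the 10 classes, which held 6.5% and 12.1% of the UMIs of all genes.

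Thbs1 was the member with the most differences between the libraries, and in each of the 7 classes compared its level was higher in sGC ∆PC. For a count of differences, a gene was taken as different when it had at least 50 UMIs in a class and differed at least 2-fold. In ECs, 1 of 5 members reached this, higher in sGC ∆PC, where 0.823% of the 6075 genes did so and 0.691% were lower. That member was Thbs1, with 47.9 CPM [37.7 to 60.2] from 74 UMIs in sGC Ctr and 192 CPM [167 to 219.5] from 214 UMIs in sGC ∆PC, a log2 ratio of 2.00 [1.61 to 2.40]. The share of ECs with a Thbs1 UMI did not show this difference, at 23 of 60 (38.3%) and 22 of 60 (36.7%), and 13.8% and 13.5% after thinning. The UMIs were concentrated in few sGC ∆PC cells: 1 EC held 53 of the 214 UMIs (24.8%) and the 6 highest ECs 72.4%, against 9.46% and 50.0% in sGC Ctr. With the same weight for every EC, the log2 ratio was 0.89, under 2-fold. Among markers of other cells, the summed levels of the 4 MHC class II genes (40.2 and 188 CPM), the 8 macrophage markers (130 and 205 CPM) and the 6 granulocyte markers (15.6 and 32.3 CPM) were higher in the sGC ∆PC ECs. Not all lists were. The monocyte markers stood at 24.0 and 29.6 CPM and the Gpnmb macrophage list at 57.7 and 58.3 CPM. Lower in sGC ∆PC were the pericyte (195 and 117 CPM), fibroblast (221 and 189 CPM) and cancer cell markers (99.8 and 86.1 CPM). The part of such RNA in the Thbs1 ratio was not tested. In granulocytes 1 of 4 members was higher, Thbs1 again, at a log2 ratio of 1.03 [0.87 to 1.18], where 1.32% of genes were higher and 1.79% lower. This lay at the limit, and was under 2-fold with a mitochondrial limit of 5% (0.90) and in thinned cells (0.99). Here the share of cells with a UMI was higher as well, as given above. In macrophages, 3 of 7 members were higher (Thbs1, Tnc and Postn) and none lower, where 1.04% of 11774 genes were higher and 0.323% lower. Each of the 3 was under 2-fold in some alternative, Tnc (0.43) and Postn (0.12) with a stricter gate and Thbs1 in thinned cells (0.63) and with the same weight for every cell (0.67). The Thbs1 level in macrophages was 113 CPM [109 to 117] and 231 CPM [225 to 237], giving a log2 ratio of 1.03 [0.96 to 1.09], with 12.6% and 20.1% of thinned macrophages holding a UMI (24.3% and 31.8% without thinning), above the T cells. Thinning left out 16 of 2142 and 797 of 2818 macrophages, so that all thinned macrophage shares given here stem from differently selected cells. The macrophage class took in cells that also passed the monocyte gate. The summed monocyte markers in macrophages were 315 and 421 CPM, and their part in the Thbs1 ratio was not tested. In monocytes, where the level was highest, the ratio was smaller, at 0.43 [0.38 to 0.48], and 0 of 4 members reached 2-fold, where 0.448% of genes were higher and 0.289% lower. In pericytes the ratio was 0.55 [0.06 to 1.03] and in fibroblasts 0.27 [0.04 to 0.49], both from few cells: a single pericyte held 32.9% of the Thbs1 UMIs in sGC Ctr and another 36.8% in sGC ∆PC, and with the same weight for every pericyte the ratio turned to -0.50. In cancer cells, 2 of 8 members were higher (Thbs1 and Tnc), where 3.85% of genes were higher and 0.118% lower. The Thbs1 level there was low, at 7.45 and 17.2 CPM, and the share of thinned cancer cells with a UMI, 1.5% and 5.10%, was no higher than T cells had or, at 0 of 53, allowed. The UMIs were uneven among cancer cells, a single cell holding 60 in sGC Ctr and another 79 in sGC ∆PC, and the part of free RNA in this ratio was not tested.

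**Figure D2:**
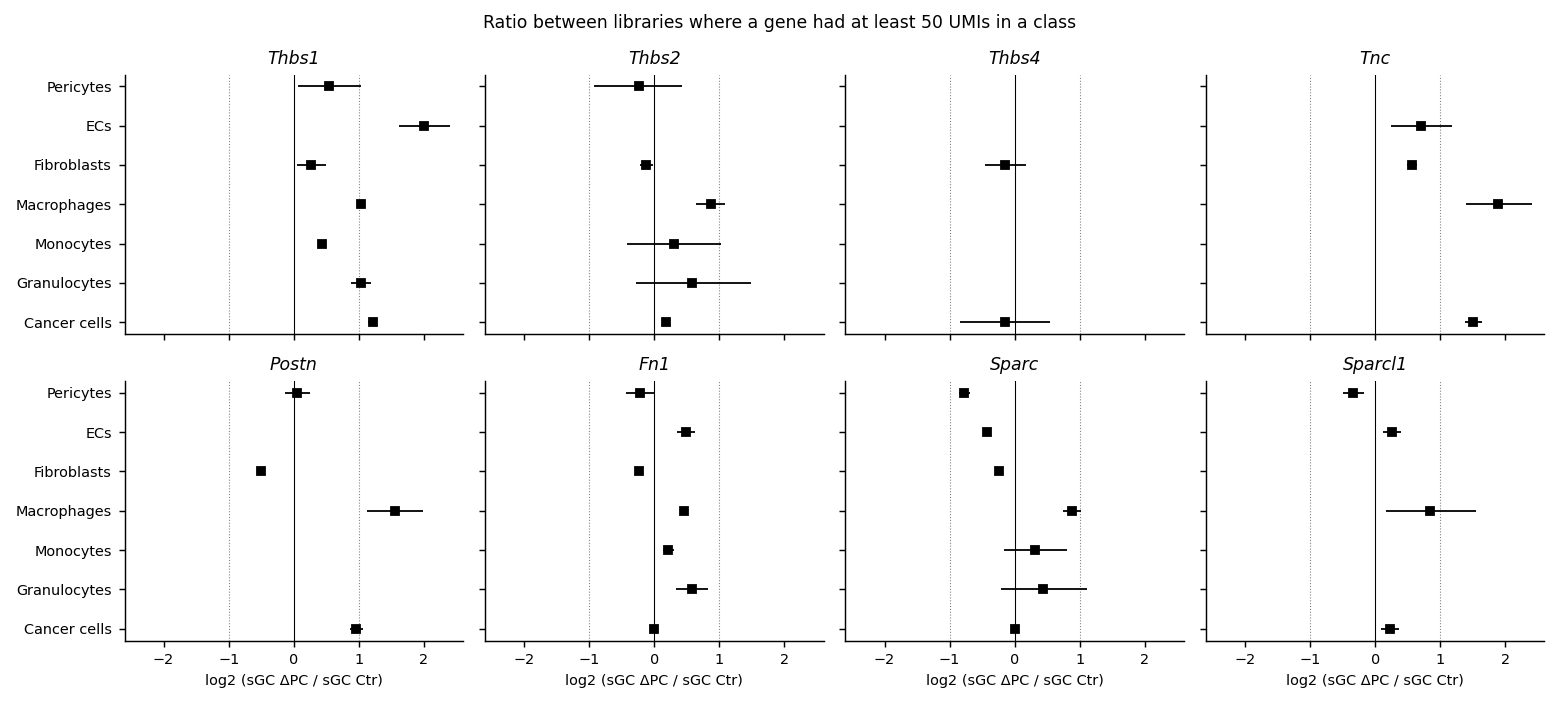
Log2 ratio of the level in sGC ∆PC to that in sGC Ctr for each gene and class in which the libraries held 50 or more UMIs of it, with exact 95% intervals of the 2 counts as bars and dotted lines at 2-fold. Thbs1 lies above 0 in all 7 classes and is highest in ECs at 2.00, while Sparc is lowest in pericytes at -0.77.

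Thbs2 (chr17:14665500-14694235, minus strand), which like thrombospondin 1 inhibits vessel growth, was a gene of fibroblasts. Its level there was 825 CPM [790 to 860.5] and 758 CPM [721 to 796], giving a log2 ratio of -0.12 [-0.22 to -0.03]. Pericytes followed with 117 and 99.7 CPM and cancer cells with 66.6 and 75.2 CPM. After thinning, 63.4% and 55.6% of fibroblasts and 12.4% and 13% of cancer cells had a UMI (91.3% and 66.8%, and 84.9% and 60.8%, without thinning), against 5.66% and 5.45% of T cells. Since cancer cells were so many, they held 85.5% and 80.8% of the Thbs2 UMIs, near their share of the UMIs of all genes (86.2% and 80.7%). ECs had only 9 and 14 Thbs2 UMIs. In macrophages the ratio was 0.86 [0.64 to 1.09], but the share of thinned macrophages with a UMI, 1.93% and 4.90%, was no higher than that of T cells, the background class. The T cell shares come from 3 of 53 and 3 of 55 cells, too few to tell the macrophages or the cancer cells apart from them. The intervals of the T cell shares reached 15.7% and 15.1%.

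Thbs4 (chr13:92751590-92794818, minus strand), a thrombospondin known from tendon and muscle, was found in fibroblasts and hardly in any other class, at 80.6 CPM [70.0 to 92.3] and 73.0 CPM [61.9 to 85.6], giving a log2 ratio of -0.14 [-0.45 to 0.17]. ECs had no Thbs4 UMI in either library, which allows a level of up to 1.94 and 2.69 CPM (3 counts), and pericytes had 1 and 0 UMIs. The ratio ran from -1.18 to 0.22 over the alternative settings. Within the fibroblasts few cells carried it: 23 of 115 and 32 of 211 cells had a UMI, and the 12 and 22 highest cells held 92.3% and 93.5% of the UMIs. Fibroblasts with the highest levels of contractile genes (Acta2, Tagln, Myl9, Tpm2, Cnn1) had 178 CPM of Thbs4 against 74.2 CPM in the others in sGC Ctr, and 177 against 62.7 CPM in sGC ∆PC. Those contractile cells numbered 7 and 20, of which 28.6% and 40.0% had a Thbs4 UMI, and 8 and 20 fibroblasts lay near the limit. In sGC ∆PC the contractile cells were shallower than the other fibroblasts, with medians of 3509 and 9528 UMIs.

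Tnc (chr4:63959785-64047015, minus strand) was highest in fibroblasts by a wide margin. The fibroblast level was 978.5 CPM [941 to 1017] from 2526 UMIs in sGC Ctr and 1453 CPM [1402 to 1506] from 3045 UMIs in sGC ∆PC, a log2 ratio of 0.57 [0.49 to 0.65] and a 1.49-fold difference. More of the fibroblasts had a Tnc UMI at equal depth, 53.6% in sGC Ctr and 69.4% in sGC ∆PC after thinning (77.4% and 77.7% without thinning). Thinning leaves out cells under 2000 UMIs, which were 3 of 115 and 67 of 211 fibroblasts, so that these and the other thinned fibroblast shares stem from differently selected cells. ECs had 46.7 and 76.3 CPM, giving a log2 ratio of 0.71 [0.24 to 1.18], which with the same weight for every cell was -0.04. Pericytes had 26 and 5 Tnc UMIs (52.6 and 17.2 CPM), which together are under the minimum of 50. In fibroblasts none of the 7 members reached 2-fold, where 0.998% of 7815 genes were higher and 1.11% lower. In macrophages the Tnc level was 1.65 and 6.11 CPM, giving a log2 ratio of 1.89 [1.39 to 2.41], but only 0.282% and 1.24% of thinned macrophages had a UMI. T cells had 0 of 53, which allows up to 5.66%, and 1 of 55 (1.82%), too few cells to tell the macrophages apart from them. With a stricter gate the ratio was 0.43. The cancer cells had 1.63 and 4.62 CPM, a ratio of 1.5 [1.37 to 1.64], with 0.400% and 1.10% of thinned cells, which again cannot be told apart from T cells. The UMIs were uneven, with 84 Tnc UMIs (12.6%) in 1 cancer cell of sGC Ctr and 55 (3.58%) in 1 of sGC ∆PC.

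Postn (chr3:54361109-54391037, plus strand) was shared by fibroblasts and pericytes and was at most 7.03 CPM in every other class. Fibroblasts had 2533 CPM [2472 to 2596] in sGC Ctr and 1780 CPM [1724 to 1838] in sGC ∆PC, a log2 ratio of -0.51 [-0.57 to -0.45] or a 1.42-fold lower level. The direction was thus opposite to that of Tnc in the same cells. Among all genes tested in fibroblasts, 6.67% had a lower ratio than Postn and 95.5% a lower ratio than Tnc. The share of fibroblasts with a Postn UMI differed little at equal depth, at 88.4% and 85.4% (94.8% and 87.7% without thinning). Pericytes had 1174 CPM [1081 to 1274] from 580 UMIs and 1220 CPM [1096 to 1354] from 355 UMIs, giving a log2 ratio of 0.05 [-0.14 to 0.25] whose direction was the other in 6 of 13 alternative settings. ECs had 0 and 2 Postn UMIs. The level in macrophages was 2.40 and 7.03 CPM, giving a log2 ratio of 1.55 [1.12 to 1.99], with 0.423% and 1.24% of thinned cells holding a UMI. T cells had none in 53 and 55 cells, which allows up to 5.66% and 5.45%, so that the macrophages cannot be told apart from them. With a stricter gate the ratio was 0.12. The summed level of 8 fibroblast markers in macrophages was 414 and 615 CPM, and in T cells 501 and 654 CPM, all 8 markers being present at this low level in both. The part of this RNA in the macrophage ratios of Tnc, Postn, Thbs2 and Sparc was not tested.

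**Figure D3:**
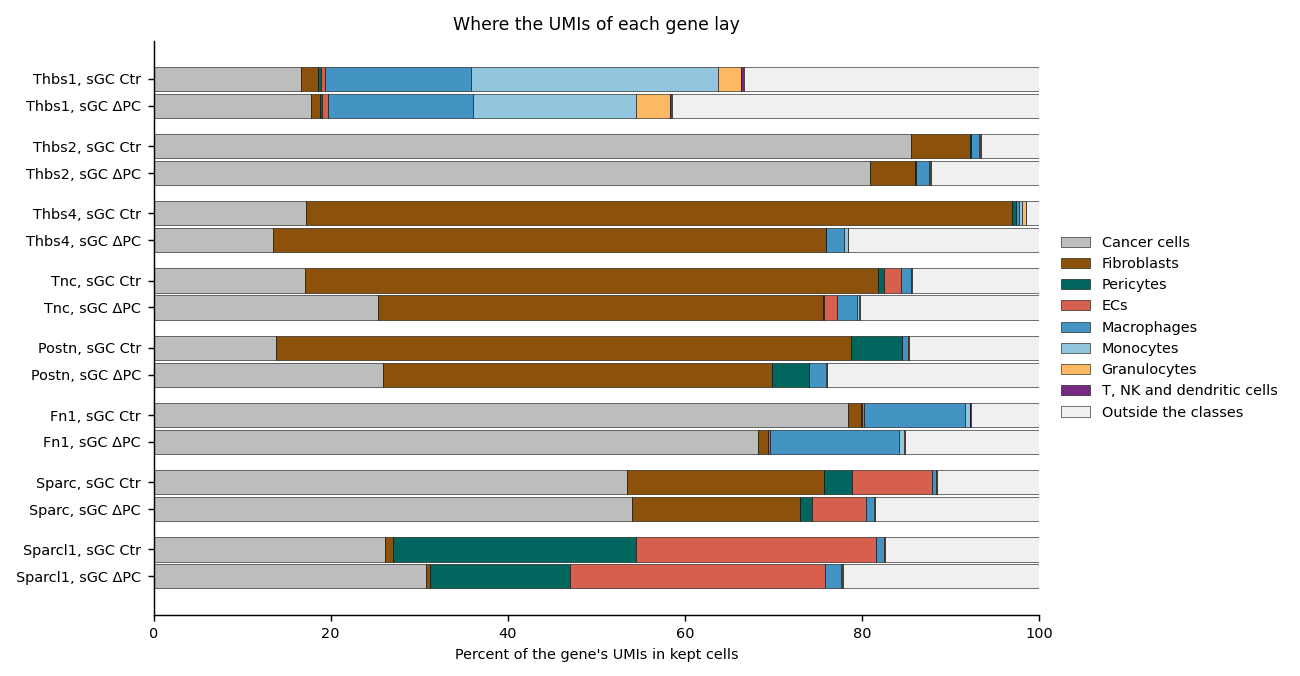
Share of the UMIs of each gene that lay in each cell class or outside the classes, in percent, for sGC Ctr and sGC ∆PC. Cancer cells held most UMIs of Fn1 (78.4% and 68.2%), Thbs2 and Sparc, while fibroblasts held most of Tnc and Thbs4, and of Postn 64.9% and 43.9%. Of the UMIs of all genes, cancer cells held 86.2% and 80.7%.

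Fn1 (chr1:71585520-71653200, minus strand) was the most widely expressed member. In sGC Ctr its level was highest in fibroblasts, at 2590 CPM [2528 to 2653], ahead of macrophages at 1968 CPM [1952 to 1985]. In sGC ∆PC the order was the other way round, with macrophages at 2694 CPM [2673 to 2716] and fibroblasts at 2204 CPM [2141 to 2268]. The log2 ratios were -0.23 [-0.29 to -0.18] in fibroblasts and 0.45 [0.44 to 0.47] in macrophages. Macrophages with a UMI were 77.6% and 83.5% after thinning (95.9% and 92.8% without), against 43.4% and 47.3% of T cells. Cancer cells had 874 and 873 CPM, a ratio of -0.00 [-0.01 to 0.01], from 358945 and 290383 UMIs. Monocytes had 1044 and 1213 CPM, pericytes 1033 and 890 CPM, ECs 593 and 831 CPM, and granulocytes 441 and 660 CPM. The EC level rested on few cells, since the 6 highest of 60 ECs held 62.7% and 67.5% of the Fn1 UMIs. In T cells, the background class, Fn1 stood at 321 and 423 CPM. Splice forms of fibronectin, such as those with the extra domains, are not resolved by 3′ counts.

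Sparc (chr11:55394500-55423183, minus strand) marked the stromal classes as a whole. Fibroblasts had 11822 and 9949 CPM, pericytes 8675 CPM [8417 to 8939] and 5076 CPM [4821 to 5342], and ECs 8011 CPM [7871 to 8154] and 5962 CPM [5820 to 6107]. Cancer cells had 178.5 and 178.3 CPM, and the leukocyte classes 10.2 to 91.2 CPM. All 3 stromal levels were lower in sGC ∆PC, with log2 ratios of -0.25 [-0.27 to -0.22] in fibroblasts, -0.43 [-0.47 to -0.38] in ECs and -0.77 [-0.86 to -0.69] in pericytes. The pericyte ratio is a 1.71-fold lower level, and 4.09% of the genes tested in pericytes had a lower ratio. In pericytes 0 of 6 members reached 2-fold in either direction, where 1.27% of 2370 genes were higher and 1.77% lower. Beside it, the summed fibroblast markers in pericytes were 3631 and 2612 CPM, the smooth muscle markers 492 and 333 CPM, and the 10 pericyte markers 10692 and 10561 CPM. Cells under 2000 UMIs were 0 and 15 of 39. The part of these in the Sparc ratio was not tested. At equal depth nearly every stromal cell had a Sparc UMI, 96.6% to 100% in the 3 classes and both libraries. Macrophages (5.74% and 8.66% of thinned cells) were below T cells (18.9% and 10.9%), the background class, and their ratio of 0.88 [0.74 to 1.02] turned to -0.22 with a stricter gate. In sGC ∆PC the interval of the T cell share, 4.11% to 22.2%, held the macrophage share.

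Sparcl1 (chr5:104079111-104113733, minus strand) was highest in vessel cells in both libraries. Pericytes had 1910 CPM [1790 to 2035] and 1516 CPM [1377 to 1664], and ECs 604.5 CPM [566 to 645] and 721 CPM [672 to 773]. The log2 ratios were -0.33 [-0.50 to -0.17] in pericytes and 0.25 [0.12 to 0.39] in ECs, with intervals that do not overlap, though the EC ratio was -0.06 in thinned cells. Without a limit on cancer RNA the pericyte ratio was -1.18, past 2-fold. Fibroblasts had 11.6 and 6.68 CPM from 30 and 14 UMIs, in contrast to their high Sparc level. After thinning, 92.3% and 95.8% of pericytes, 63.8% and 69.2% of ECs and 3.57% and 2.78% of fibroblasts had a UMI (97.4% and 79.5%, 88.3% and 86.7%, and 12.2% and 4.74% without thinning). T cells had no UMI after thinning in 53 and 55 cells. In macrophages 0.188% and 0.594% had a UMI, below what 0 in so few T cells allows (5.66% and 5.45%), and the ratio of 0.85 [0.17 to 1.55] turned to -0.17 with a stricter gate.

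Within classes, the members followed different subsets of cells. For this, cells with at least 2000 UMIs were split by the summed level of a list of genes, with a limit set after the values were seen. The splits have no test, and the members were counted in the same cells. Among pericytes, those with high contractile genes (15 of 39 and 7 of 24) had 311 CPM of Thbs1 against 36.8 CPM in the others in sGC Ctr, and 459 against 71.1 CPM in sGC ∆PC. The high levels came from 69 and 58 UMIs, and in each library 4 of the 39 pericytes held most Thbs1 UMIs (75.9% and 77.9%). Cells with a Thbs1 UMI were 53.3% against 20.8% in sGC Ctr, and 85.7% against 35.3% in sGC ∆PC. These shares are without thinning, and the contractile pericytes were deeper. Their medians were 14399 against 9737 UMIs in sGC Ctr and 16590 against 8391 UMIs in sGC ∆PC. Whether the contractile cells were smooth muscle cells was not tested. Postn went the other way, with 748 against 1523 CPM and 863 against 1693 CPM, and so did Sparcl1, with log2 ratios of high to other cells of -0.68 and -1.29. Sparc differed little between these pericytes, at -0.08 and 0.23. Up to 11 pericytes of a library lay near the limit.

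Macrophages high in Gpnmb, Mmp12, Hmox1 and Arg1 (481 and 616 cells) had 303 CPM of Thbs1 against 66.0 CPM in the others, and 430 against 142 CPM, log2 ratios of 2.20 [2.10 to 2.31] and 1.60 [1.52 to 1.68]. Macrophages high in hypoxia genes (382 and 372 cells) gave a similar picture for Thbs1, with 341 against 71.2 CPM and 499 against 172 CPM, but not for Fn1, with log2 ratios of 0.04 and -0.11. The difference between the libraries was seen on both sides of each of these splits. Macrophages high in MHC class II genes had less Fn1, 1366 against 2074 CPM and 2005 against 3003 CPM. In monocytes, those high in MHC class II genes (83 and 54 cells) had less Thbs1, 680 against 2553 CPM and 1126 against 3342 CPM, log2 ratios of -1.91 [-2.06 to -1.76] and -1.57 [-1.71 to -1.43].

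Among fibroblasts, 42 and 21 cells were high in adventitial genes (Pi16, Dpp4, Cd34, Clec3b, Ly6c1, Ly6a). They had less Thbs4, with log2 ratios of -1.54 and -2.82, less Thbs2 (-0.79 and -0.38), less Tnc (-0.87 and -0.19) and more Postn (0.47 and 0.18). The Thbs4 levels of the high cells came from 36 and 6 UMIs. Their share with a Thbs4 UMI differed little from the others (19.0% against 21.4%, and 14.3% against 17.9%). In sGC ∆PC the shares for Thbs2 (85.7% against 77.2%), Tnc (95.2% against 82.9%) and Postn (85.7% against 95.9%) went against the levels. Near the limit lay 34 and 33 cells. In sGC ∆PC the high cells were deeper, with medians of 20219 and 5505 UMIs. The lower Postn level of the sGC ∆PC library was present among fibroblasts not high in adventitial genes too, at 2209 and 1747 CPM. The higher Tnc level was likewise, at 1183 and 1512 CPM. Among the 7 and 20 contractile fibroblasts, however, Postn was higher in sGC ∆PC, at 1348 and 2316 CPM from 220 and 367 UMIs. Fibroblasts not high in contractile genes had 2615 and 1759 CPM. Sparc too was higher in the contractile cells of sGC ∆PC (10599 and 15165 CPM) and lower in the others (11918 and 9780 CPM). In cancer cells, those high in Mki67, Top2a, Cdk1, Ccnb1, Birc5 and Ube2c had less Fn1 (568 against 984 CPM and 648 against 962 CPM). Their Thbs2 was lower too (40.0 against 76.1 CPM and 55.6 against 82.9 CPM). This split does not part cells in the cell cycle from cells outside it. Cancer cells high in the mesenchymal genes Aspn, Prg4, Ptn, Fbn1 and Ogn had more Fn1 (1155 against 837 CPM and 1292 against 845 CPM), more Sparc (267 against 167 CPM and 275 against 172 CPM) and more Sparcl1 (7.15 against 1.55 CPM and 6.57 against 2.31 CPM). These 5 genes were higher in the fibroblast class (1267 and 950 CPM) than in cancer cells (231 and 172 CPM). The cancer cell gate limited fibroblast markers only by the fibroblast gate itself. The part of droplets mixing cancer and fibroblast RNA was not tested.

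**Figure D4:**
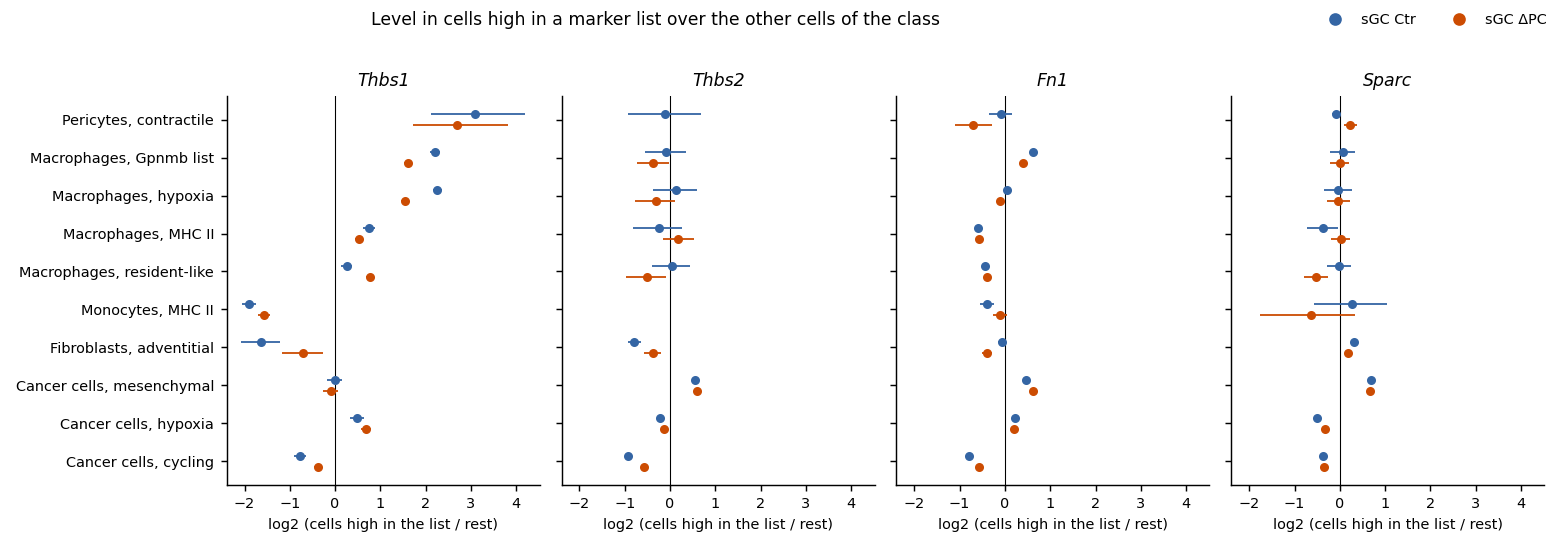
Log2 ratio of the level of Thbs1, Thbs2, Fn1 and Sparc in cells high in a gene list to that in the other cells of the same class, 1 row per class and list, for sGC Ctr (blue) and sGC ∆PC (orange), with exact 95% intervals of the 2 counts as bars. For Thbs1 the points lie above 0 for contractile pericytes (3.08 and 2.69) and Gpnmb-high macrophages (2.20 and 1.60) and below 0 for MHC class II-high monocytes (-1.91 and -1.57). The contractile pericytes are 15 and 7 cells, and few pericytes held most of their Thbs1 UMIs.

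The median log2 ratio over the members was -0.22 in pericytes (6 members), 0.49 in ECs (5), -0.14 in fibroblasts (7), 0.88 in macrophages (7), 0.31 in monocytes (4), 0.57 in granulocytes (4) and 0.20 in cancer cells (8). Over all genes tested it lay between -0.07 and 0.01 in the 7 classes. The macrophage median includes 5 members (Thbs2, Tnc, Postn, Sparc and Sparcl1) whose share of thinned macrophages with a UMI was no higher than T cells had or a count of 0 allowed.

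Other matricellular genes were read from a list of 20. In fibroblasts 13 of them had at least 50 UMIs, with a median log2 ratio of -0.37, and 3 were at least 2-fold lower while none was higher. These were Tnxb, the tenascin of loose connective tissue (150 and 38.7 CPM, -1.95 [-2.32 to -1.60]), Ccn3 (19.4 and 5.73 CPM) and the SPARC relative Smoc2 (56.2 and 22.9 CPM, -1.29 [-1.80 to -0.81]). Over all genes tested in fibroblasts, 1.11% were lower and 0.998% higher. The make-up of the class differed between the libraries, with 1783 and 1014 CPM of the 6 adventitial markers, 42 of 112 and 21 of 144 cells high in them, and 4 and 25 cells high in MHC class II genes. The part of this in the ratios of Tnxb, Ccn3 and Smoc2 was not tested. In ECs 1 of 6 was higher (0.823% over all genes), Ccn2 (57.7 and 156 CPM, 1.44 [1.06 to 1.82]), which encodes connective tissue growth factor. In pericytes 1 of 5 was higher (1.27% over all genes), Spp1, the gene for osteopontin, which macrophages also make (130 and 272 CPM, 1.07 [0.57 to 1.57]). The summed macrophage markers in pericytes were 95.2 and 162 CPM, and their part in the Spp1 ratio was not tested. In macrophages none of 8 reached 2-fold (1.04% higher and 0.323% lower over all genes).

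Of 17 genes for receptors of these proteins, 11 had at least 50 UMIs in ECs and none reached 2-fold. Over all genes tested in ECs, 0.823% were higher and 0.691% lower. The thrombospondin receptors were Cd47, with 368 and 381 CPM, and Cd36, with 148 and 183 CPM, and the integrin chain Itgb3 had 142 and 162 CPM. In pericytes 8 receptors were measured, all with a ratio below 0 and none at 2-fold, the lowest being the syndecan Sdc1 (439 and 272 CPM, -0.69 [-1.08 to -0.32]). Over all genes tested in pericytes, only 42.9% had a ratio above 0, and the median was -0.07. At least 2-fold higher were 1.27% and lower 1.77%. In fibroblasts 1 of 11 was higher (0.998% over all genes), the SPARC-clearing receptor Stab1 (8.52 and 20.05 CPM, from 22 and 42 UMIs), a gene also of macrophages. In macrophages 1 of 14 was higher (1.04% over all genes), Itgb3, from 14 and 43 UMIs. Thbs1 is also an early response gene in many cells, and so 11 immediate early and heat shock genes were counted, a list added after the values were seen. Their median log2 ratio was 0.11 in ECs, 0.35 in macrophages and 0.10 in granulocytes. None of the 11 was 2-fold higher in ECs or granulocytes (0.823% and 1.32% over all genes). In macrophages 1 of them was (1.04% over all genes), Fosb (66.1 and 148 CPM). In cancer cells 1 of 11 was higher (3.85% over all genes), with a median log2 ratio of 0.27. In granulocytes 1 of 11 was at least 2-fold lower (1.79% over all genes). In pericytes 1 of 10 was at least 2-fold lower (1.77% over all genes), the heat shock gene Hspa1b (229 and 92.8 CPM). Their part in the Thbs1 ratios was not tested.

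The genes with the most similar pattern over the 20 points of 10 classes and 2 libraries (Pearson r of log2 CPM, among 12533 genes, a description without a test, in points that share libraries) differed from member to member. For Thbs1 they were Rara (0.88), F10 and Msrb1, and for Thbs2 Col5a1 (0.97), Egfr and Gpr153. For Tnc they were Spats2l (0.98), Fbln2 and Tfpi2, and for Postn Adamts2 (1.00), Mfap2 and Nfatc4. For Fn1, Dse (0.92), Emp1 and Pla2g15 came first, for Sparc Grb10 (0.98), Ptprg and Rhoj, and for Sparcl1 Ttll7 (0.98), Ccn2 and Spry1. Thbs4, with too few UMIs, was not compared.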

How the data were processed

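Droplet 3′ libraries of dissociated tumors, 3 tumors pooled per library, were aligned by the authors to mm10 with Cell Ranger 6.1.1, and the deposited values are raw UMI counts per gene and cell barcode. The libraries held 15007 (sGC Ctr) and 25631 (sGC ∆PC) barcodes, of which 131 were shared. Cells with more than 10% mitochondrial UMIs, or beyond 3 median absolute deviations in UMIs or genes, were left out, which kept 81.4% and 87.8%. Classes were gated per cell on marker genes, with levels set after the values were seen. Cells that passed only the monocyte and the macrophage gate together counted as macrophages. Cells that passed other combinations of gates were left out. So were non-cancer cells with over 25% of the cancer cells' marker level and at least 2 such UMIs. After these steps 85.7% and 69.3% of kept cells fell in classes. Raw counts were summed per class and library, with exact Poisson, conditional binomial and Clopper-Pearson intervals (scipy 1.17.1). Ratios needed 50 UMIs in both libraries together, and 0.5 was added to counts to call 2-fold over all genes. Thinned shares of cancer cells used 3000 cells per library. The code was tested on simulated data.

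Named were all 8 members, the list genes past 2-fold in pericytes, ECs or fibroblasts, and the 3 genes most alike each member among those with at least 500 UMIs (10 CPM added before the log2). A list of TGF-β response genes is not reported here. Macrophage and receptor genes outside this rule were chosen after their values were seen. The members and lists were chosen with earlier results of these data known. Alternatives were other filters, gates, a rebuilt clustering, thinning, weights and minimums. Scrublet marked 4.30% of sGC Ctr and 0 of the sGC ∆PC cells, so doublets were not removed and the highest 5% of scores were left out as an alternative. Promoter windows are from RefSeq (GRCm38.p6) and gene positions from GENCODE, on GRCm38.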

Additional observations from a re-analysis of the deposited data

Results flagged for a closer look

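For 4 genes, the highest and the lowest ratio of sGC ∆PC to sGC Ctr among the classes pointed in opposite directions, with intervals on either side of 0. Thbs2 is not among the 4, since its lowest ratio, in pericytes, had an interval that was not wholly below 0. Its ratios in fibroblasts (-0.12) and macrophages (0.86) had intervals on either side of 0 as well. The share of thinned macrophages with a Thbs2 UMI was no higher than that of T cells. With 1 library per group these differences were not tested, and the intervals behind them cover counting error only. Postn had a log2 ratio of 1.55 in macrophages and -0.51 in fibroblasts, a difference of 2.06, where the macrophage level was 2.40 and 7.03 CPM. Sparc had 0.88 in macrophages and -0.77 in pericytes, a difference of 1.65, and Sparcl1 0.85 in macrophages and -0.33 in pericytes, a difference of 1.18. In these 3 cases the macrophage share of cells with a UMI was no higher than T cells had or a count of 0 allowed. With a stricter gate the macrophage ratio was -0.22 for Sparc and -0.17 for Sparcl1, so that the opposite directions were gone, and 0.12 for Postn. Fn1 had 0.58 in granulocytes and -0.23 in fibroblasts, a difference of 0.82, and here granulocytes (57.9% and 69.5% of thinned cells with a UMI) were above T cells (43.4% and 47.3%). In sGC Ctr the intervals of these shares overlapped, at 48.5% to 66.8% and 29.8% to 57.7%. The cancer RNA share of granulocytes would carry 93.3 and 114 CPM of Fn1, and its part in the ratio was not tested.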

How the results depend on the processing

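Of 41 ratios, 28 kept their direction in every alternative and 13 had the other direction in at least 1. None that reached 2-fold reversed. Counts of members at 2-fold moved as follows. Lower in pericytes were 2 without a limit on cancer RNA and 1 each with equal cell weights or a minimum of 20 UMIs (0 as reported). Higher in ECs were 2 with a mitochondrial limit of 5% or 20 UMIs, and 0 thinned or with equal weights (1). Lower in fibroblasts was 1 with a stricter gate (0). Higher in macrophages were 1 with a stricter gate and 5 with a 10% cancer RNA limit or equal weights (3). Higher in monocytes was 1 at 20 UMIs (0). Higher in granulocytes were 0 at the 5% limit or thinned (1). Higher in cancer cells were 4 with equal weights (2). The cause was not tested, except that thinned ECs had fewer than 50 Thbs1 UMIs. Other cases are beside the ratios above. Over all alternatives the log2 ratio of Thbs1 ran from 0.89 to 2.54 in ECs, 0.63 to 1.26 in macrophages and 0.90 to 1.11 in granulocytes. That of Tnc in fibroblasts ran from 0.34 to 0.62, of Postn in fibroblasts from -0.76 to -0.46, and of Sparc in pericytes from -1.32 to -0.71. In cancer cells, at the low levels given above, Thbs1 ran from 1.17 to 1.82 and Tnc from 1.39 to 2.00. No paired analysis was possible because each group had 1 library, and no library could be left out. Depth limits pericytes (39 cells per library) and granulocytes (95 of 216 and 113 of 267 cells under 2000 UMIs).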

Other observations

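Counting how many of the 8 genes a cell had a UMI for, after thinning to 2000 UMIs, gave a mean of 4.28 and 4.42 in fibroblasts, 3.90 and 4.04 in pericytes and 2.16 and 2.35 in ECs. Macrophages had 0.99 and 1.20, cancer cells 1.16 and 1.22, and T cells, the background class, 0.68 and 0.71. Macrophages high in Mmp9, Ctsk, Acp5, Ocstamp and Dcstamp (18 and 28 cells) had less Fn1 than the others, 463 against 1985 CPM in sGC Ctr and 1649 against 2742 CPM in sGC ∆PC. Fibroblasts high in MHC class II genes (4 and 25 cells) had less Tnc, 240 against 1005 CPM and 561.5 against 1556 CPM, and less Thbs2, 320 against 844 CPM and 340 against 811 CPM. Postn differed in opposite directions, with 3088 against 2515 CPM in sGC Ctr and 890 against 1891 CPM in sGC ∆PC. Near the limit lay 6 and 16 fibroblasts, and in sGC ∆PC the high cells were shallower, with medians of 3344 and 10167 UMIs. The part of mixed droplets was not tested.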
